A study of Mus musculus with 6 samples.

Results

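The data describe 10 imprinted genes that act on growth, H19, Igf2, Cdkn1c, Dlk1, Meg3, Peg3, Grb10, Plagl1, Ndn and Nnat, in epidermal basal cells of pregnant mice. Every probe set that the platform annotates to one of them was taken, including 1 that lists H19 together with Mir675, which gave 37 of the 45037 probe sets on the array that are not controls. The genes were picked with measured values of these arrays known, so their contrasts between groups are given as a description and not as a test. RNA came from living α6-integrin-positive cells sorted from skin of female C57BL/6 mice aged 10 weeks, in 3 groups of 2 arrays. They were ventral (abdominal) skin of pregnant mice at 16 days post coitum (dpc), dorsal skin at 16 dpc, and ventral skin of virgin mice. No virgin dorsal group was analysed here. Dorsal 16 dpc cells therefore differ from virgin ventral cells in site and in pregnancy at once. The sort used α6-integrin alone, an adhesion protein that basal keratinocytes share with other epithelia, and names no marker that would remove mammary or immune cells.

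An imprinted gene is read from the maternal or the paternal chromosome only, as set by DNA methylation laid down in the germ line. Many genes of this class act on growth before birth, and a common pattern is that paternally expressed ones such as Igf2 promote it while maternally expressed ones such as H19, Cdkn1c and Grb10 restrain it. Most of them are shut down in tissues soon after birth, and H19 and Igf2 share enhancers and an imprinting control region. The arrays cannot tell which parental allele a signal comes from.

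RefSeq places 5 of the 10 genes on chromosome 7 (H19, Igf2, Cdkn1c, Peg3 and Ndn) and 2 on chromosome 12 (Dlk1 and Meg3), with Grb10 on 11, Plagl1 on 10 and Nnat on 2. H19 and Meg3 make long non-coding RNAs and the other 8 encode proteins. H19 also holds the hairpin of a microRNA, Mir675, and the 1 probe set of H19 lists both. The hairpin is shown because the platform lists Mir675 with H19 at this single probe set. The array gives no value for the mature arms, so the signal is not read here as a level of the microRNA. In the RefSeq annotation of GRCm38.p6 it lies at chr7:142577064-142577147 on the minus strand, with the mature arms in capitals below. The arms lie at chr7:142577112-142577133 and chr7:142577078-142577099 and are 22 bases each, printed with the seed (bases 2 to 8) in capitals. No other mature mouse microRNA listed there by RefSeq carries either seed (0 matches).
Mir675 hairpin: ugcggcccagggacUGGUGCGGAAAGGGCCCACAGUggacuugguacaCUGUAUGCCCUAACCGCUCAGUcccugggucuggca
mmu-miR-675-5p: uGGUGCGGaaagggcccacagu
mmu-miR-675-3p: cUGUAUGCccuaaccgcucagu

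Values are MAS5 signals in arbitrary units, scaled alike on every array, each with a detection call of present, marginal or absent. The arrays called 47.2% to 53.3% of 45101 probe sets present, and the median signal was 61.1 to 78.9. The series text says only that the experiment was repeated, so no label shows that the 2 arrays of a group came from separate animals, and the spread between them may be technical. The actin 3′ to 5′ signal ratio, a sign of RNA quality, was 1.78 and 3.90 on replicates 1 and 2 of 16 dpc ventral cells, 2.04 and 4.47 on those of 16 dpc dorsal cells, and 2.46 and 2.15 on those of virgin ventral cells. All 10 marker genes of basal keratinocytes were present on all 6 arrays. Fibroblast, mammary and placental markers are given beside H19.

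H19, a long non-coding RNA that restrains growth in the embryo, stood higher in 16 dpc ventral cells than in either other group. Its signals were 342 and 612 in 16 dpc ventral cells, against 103 and 122 in 16 dpc dorsal cells and 81.4 and 108 in virgin ventral cells. Both 16 dpc ventral arrays lay above all 4 others, whereas dorsal and virgin arrays overlapped. The calls were present on 5 arrays and marginal on virgin replicate 2. The mean was 477 ± 191 in 16 dpc ventral cells, 112 ± 13.3 in 16 dpc dorsal cells and 94.9 ± 19 in virgin ventral cells (SD, n = 2 each). This was a 4.87-fold difference of 16 dpc ventral from virgin ventral cells (log2 fold change 2.28 ± 0.36 SE). Against 16 dpc dorsal cells it was 4.09-fold (log2 fold change 2.03 ± 0.36 SE).

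The H19 difference had the same direction within both replicate numbers. Within replicate 1 the log2 fold change was 2.07 when set against virgin ventral and 1.73 when set against 16 dpc dorsal cells, and within replicate 2 it was 2.50 and 2.33. Replicate 2 of both 16 dpc groups had the high actin ratio. Without those arrays 1 array was left in each 16 dpc group. H19 was then 3.64-fold higher than in virgin ventral cells (2 arrays). It was 3.33-fold higher than in 16 dpc dorsal cells, which is the replicate 1 value above (log2 fold change 1.73) and not a further check. In 16 dpc dorsal over virgin ventral cells the log2 fold change was 0.25 ± 0.36 SE, within the spread of the replicates. Over all 23017 probe sets that could be fitted, 6.44% had both 16 dpc ventral arrays above the other 4, and 0.0478% (11 probe sets) exceeded both other groups by over 4-fold. H19 was 1 of these 11, by the values it was picked on. In bulk RNA a larger share of cells with H19 and more H19 per cell cannot be told apart.

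**Figure D1:**
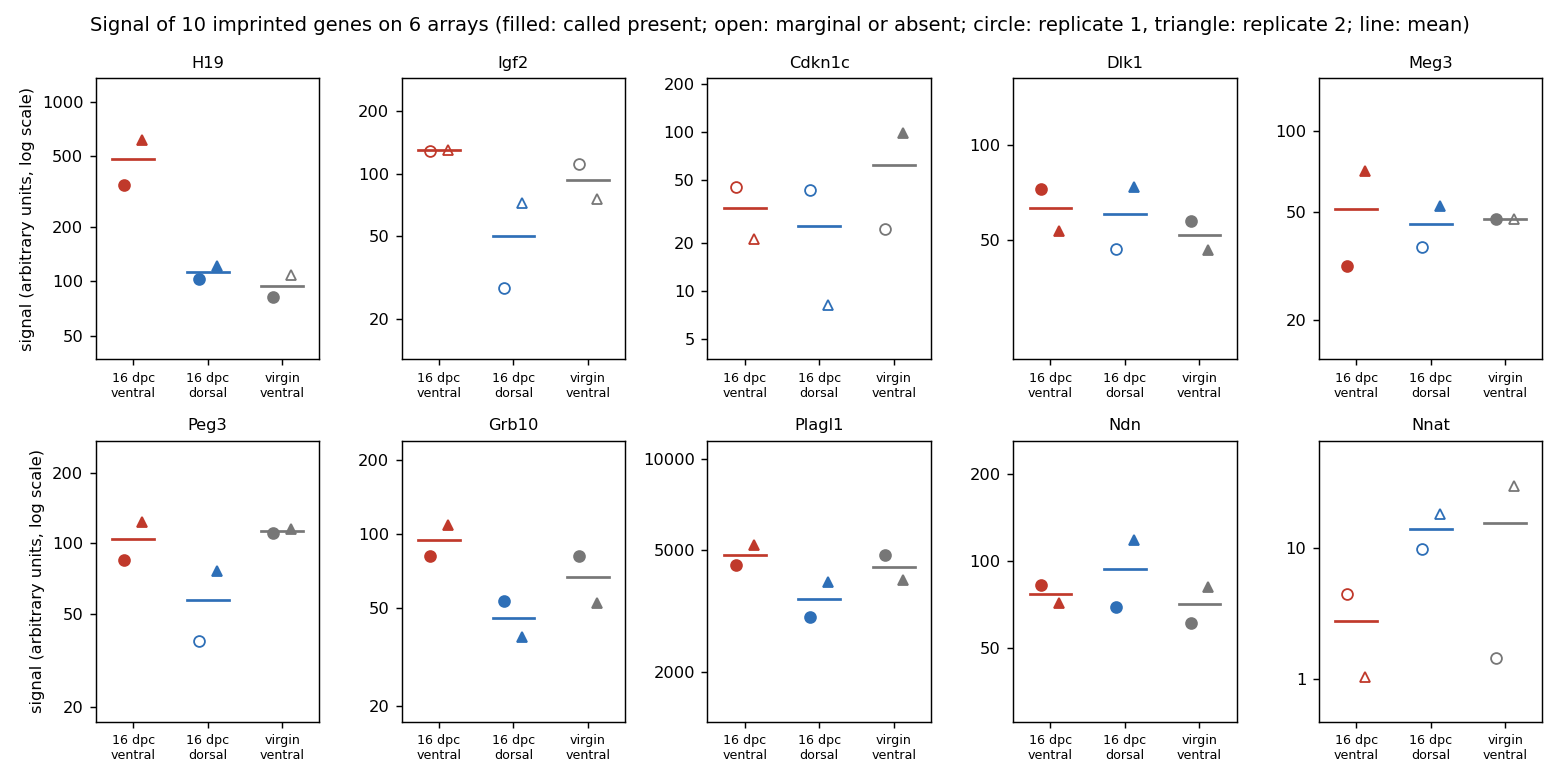
Signal (arbitrary units, log axis) of the probe set with most present calls for each of the 10 genes on 6 arrays, with circles for replicate 1, triangles for replicate 2, filled marks for present calls and lines at the group means. H19 stands at 342 and 612 in 16 dpc ventral cells and at 122 or less on the 4 other arrays, while the means of Peg3, Grb10 and Plagl1 are lowest in 16 dpc dorsal cells and Igf2, Cdkn1c and Nnat have almost no filled marks.

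Mammary epithelium also carries α6-integrin, and H19 is expressed in that gland. Milk genes stood higher in the 16 dpc ventral group, so their values are given here. Csn2 (β-casein) stood at 6185 and 699 in 16 dpc ventral cells, 204 and 348 in 16 dpc dorsal cells and 172 and 2.29 in virgin ventral cells. Csn1s1 (αS1-casein) stood at 1031 and 186, against 94.2 and 125 in dorsal and 64.6 and 26.5 in virgin cells. The caseins were higher on replicate 1 of the 16 dpc ventral cells, whereas H19 was higher on replicate 2. Of 11 mammary and milk markers on the array 9 were present on at least 1 array, Lalba and Cldn3 were present on none, and the summed signal of the list was 3052 to 10787 in 16 dpc ventral, 2014 to 2202 in 16 dpc dorsal and 1795 to 2055 in virgin ventral cells. Krt8, a keratin of simple epithelia, stood at 104 and 9.98, against 47.6 and 34.3 in dorsal and 220 and 474 in virgin cells. The part of such cells in the H19 signal was not tested. H19 is abundant in placenta and foetal tissue, of whose 8 markers 2 (Psg21 and Ttr) were present on at least 1 array and 6 (Tpbpa, Prl8a9, Ctsq, Afp, Alb and Hbb-y) on none. The summed signal of this list was 139 to 149 in 16 dpc ventral, 52.3 to 139 in 16 dpc dorsal and 116 in both virgin ventral arrays. Psg21, a pregnancy-specific glycoprotein of the placenta, stood at 44.5 and 60.2 in 16 dpc ventral cells, 5.12 and 47.8 in 16 dpc dorsal cells and 23.7 and 33.6 in virgin ventral cells. It was the 1 marker of this list that could be fitted, and it entered the fit through 16 dpc ventral cells only, by a probe set with the name ending x_at, which marks probes that can bind other transcripts. Of 9 fibroblast markers on the array 5 were present on at least 1 array, Vim and Sparc on all 6, and Col1a2, Pdgfra, Lum and Dpt on none. Their summed signal was 3221 to 3363 in 16 dpc ventral, 2098 to 2514 in 16 dpc dorsal and 2350 to 3022 in virgin ventral cells. The placental and fibroblast sums were thus highest in the group where H19 was highest. For the placental list the closest arrays stood at 138.95 (16 dpc ventral) and 138.54 (16 dpc dorsal). Of the 4 fibroblast markers that could be fitted, 2 were above 0 and 2 below over virgin ventral cells (median log2 fold change -0.21). Over 16 dpc dorsal cells 3 were above 0 and 1 below (median 0.48). The part of such cells in the H19 signal was likewise not tested. H19 is also kept on in skeletal muscle, of whose 11 markers 8 were present on none, with a summed signal of 360 to 362 in 16 dpc ventral, 427 to 464 in 16 dpc dorsal and 439 to 568 in virgin ventral cells.

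Igf2, the foetal growth factor that shares its control region with H19, was not called present on any array by either of its 2 probe sets. One stood at 128 and 131 in 16 dpc ventral cells, 28.2 and 72.5 in 16 dpc dorsal cells and 111 and 75.3 in virgin ventral cells, with 1 marginal call, on 16 dpc ventral replicate 1. The other stood at 1.63 and 2.92, against 6.08 and 14.7 in dorsal and 4.15 and 8.06 in virgin cells. The first probe set was brightest and the second dimmest in 16 dpc ventral cells, both without a present call, so no fold is given. Igf2 was thus not detectable at this depth of signal.

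The genes around H19 that could be fitted did not share its difference. Of the genes on either side of it, Nctc1 is not on the array and Igf2 had no present call. The domain that runs on chromosome 7 through H19, Igf2 and Cdkn1c was taken as 20 genes, of which 19 are on the array and 7 were present on no array. Of the 17 genes other than the 3 named, 9 could be fitted. Their log2 fold changes ran over virgin ventral cells from -0.51 to 0.35 with a median of 0.21, and over 16 dpc dorsal cells from -0.51 to 0.36 with a median of -0.06. The median over all probe sets fitted was -0.03 in both. Of the 9, 0 passed limma's test (adjusted p under 0.05) in either comparison, in the fit over probe sets or in that over genes, and at an unadjusted p under 0.05 there were 0 over virgin ventral cells and 2 lower over 16 dpc dorsal cells (4.91% and 1.73% of all probe sets fitted were lower by this measure).

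The 2 were Ascl2 and Osbpl5. Ascl2, a transcription factor of trophoblast and stem cells, stood at 863 and 882 in 16 dpc ventral cells, 1177 and 1304 in 16 dpc dorsal cells and 1168 and 1002 in virgin ventral cells. Osbpl5, a lipid transfer protein, stood at 1529 and 1653, against 1965 and 2385 in dorsal and 1814 and 1939 in virgin cells. For both genes the 16 dpc ventral arrays were the lowest of the 6. Mrpl23, a mitochondrial ribosomal protein encoded close to H19, stood at 4328 and 4856 in 16 dpc ventral, 4679 and 4317 in 16 dpc dorsal and 3984 and 3336 in virgin ventral cells (log2 fold changes of 0.33 and 0.03). Lsp1, which could not be fitted, stood at 88.4 and 98.1, against 81.7 and 167 in dorsal and 32.1 and 57.5 in virgin cells. By group means it was at least 2.17-fold above virgin ventral cells, while the 16 dpc groups overlapped.

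**Figure D2:**
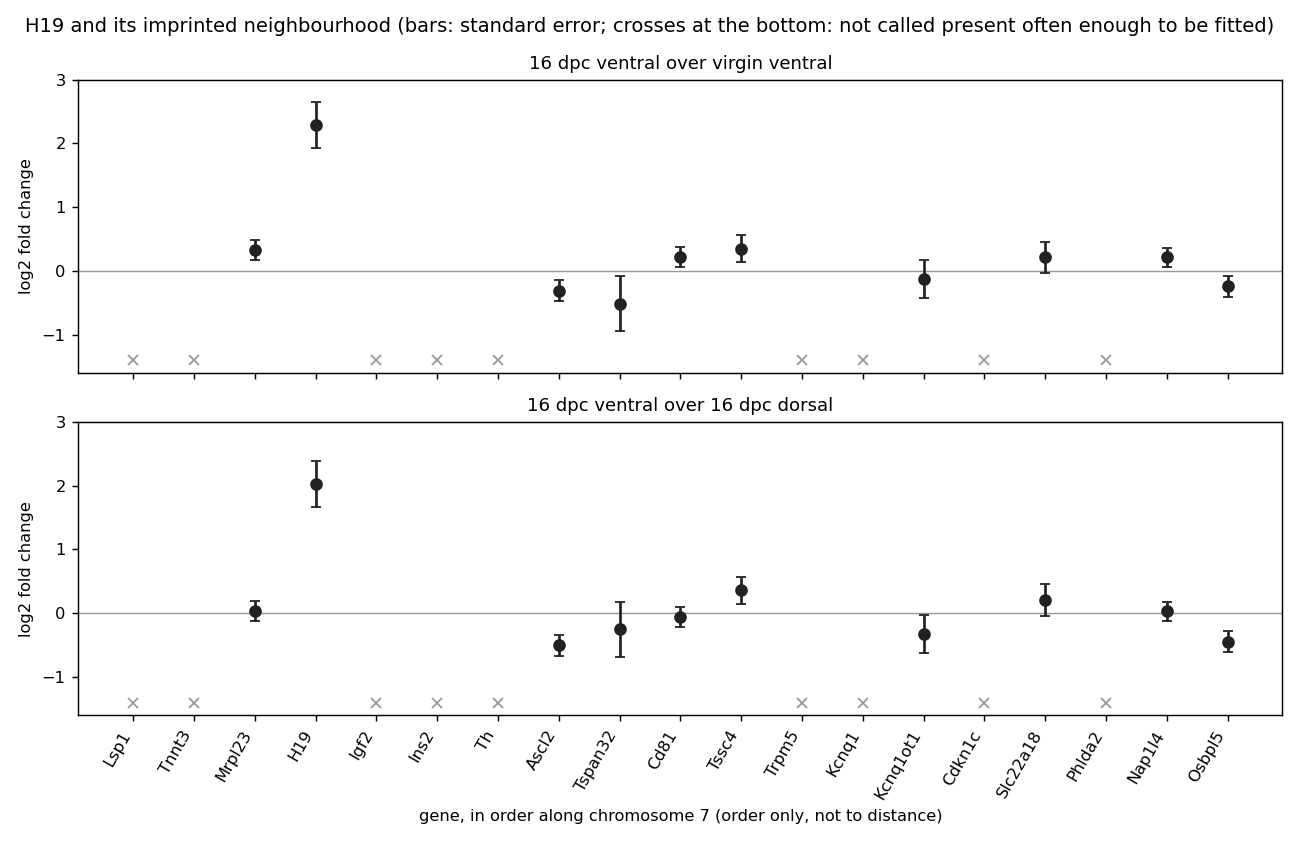
Log2 fold change (bars, standard error of the fit) of 16 dpc ventral cells against virgin ventral (upper) and against 16 dpc dorsal cells (lower), for 19 genes of the domain in their order on chromosome 7, not to distance, with crosses for genes too rarely present to be fitted. H19 stands at 2.28 and 2.03, and the 9 other fitted genes lie between -0.51 and 0.36.

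The receptors and binding proteins of the IGF system were followed because Igf2 acts through them and Grb10 binds the IGF1 receptor. Of 24 genes of the list 23 are on the array and 16 could be fitted. In limma 0 passed over probe sets or over genes, while 3 were higher and 4 lower over virgin ventral cells, and 4 higher and 1 lower over 16 dpc dorsal cells, at an unadjusted p under 0.05 (8.98% and 3.38% of all probe sets fitted). Igfbp5, a secreted IGF binding protein, stood at 473 and 587 in 16 dpc ventral cells, 49.6 and 97.5 in 16 dpc dorsal cells and 121 and 319 in virgin ventral cells. Its log2 fold change was 1.43 against virgin ventral and 2.92 against 16 dpc dorsal cells. Igfbp7, which binds IGFs weakly, stood at 2708 and 3195, against 978 and 1256 in dorsal and 1399 and 1746 in virgin cells (log2 fold changes of 0.91 over virgin ventral and 1.41 over 16 dpc dorsal). Igfals, the acid-labile subunit of the circulating IGF complex, stood at 122 and 109, against 37.3 and 22.9 in dorsal and 35.3 and 45.0 in virgin cells. It was present in 16 dpc ventral cells only. By group means it was at least 2.90-fold above virgin ventral and at least 3.95-fold above 16 dpc dorsal cells, with 2.44-fold over virgin ventral cells within replicate 2. It entered the fit through 16 dpc ventral cells alone, so that its direction was set by the filter and its place among the genes counted as higher is a description. Igfbp5 and Igfbp7 were present on all arrays, and both 16 dpc ventral arrays lay above the other 4 for each.

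The 4 lower over virgin ventral cells were Igf1r, Grb7, Irs2 and Igf2bp3. Igf1r, the receptor that signals for IGF1 and IGF2 and a reported target of miR-675, stood at 1617 and 964 in 16 dpc ventral cells, 1231 and 1310 in 16 dpc dorsal cells and 2372 and 2133 in virgin ventral cells. Both 16 dpc groups lay below the virgin arrays and overlapped each other (log2 fold changes of -0.85 over virgin ventral and -0.02 over 16 dpc dorsal). Igf2r, an imprinted receptor that clears IGF2, stood at 562 and 212, against 339 and 212 in dorsal and 672 and 642 in virgin cells. Its 16 dpc arrays were all below the virgin arrays (log2 fold changes of -0.93 over virgin ventral and 0.36 over 16 dpc dorsal). Grb7, an adaptor of the same family as Grb10, stood at 571 and 462 in 16 dpc ventral cells, 678 and 564 in 16 dpc dorsal cells and 803 and 1002 in virgin ventral cells.

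The lowest log2 fold change of the list over virgin ventral cells was that of Irs2, which carries the signal of the insulin and IGF1 receptors into the cell. Irs2 stood at 147 and 8.72 in 16 dpc ventral cells, 172 and 64.3 in 16 dpc dorsal cells and 327 and 322 in virgin ventral cells. It was present in virgin ventral cells only (log2 fold change -3.18, by group means at least 9.06-fold lower). Most of this fold came from the 8.72 of 16 dpc ventral replicate 2. Igf2bp3, which binds Igf2 mRNA, stood at 42.8 and 58.8, against 81.4 and 79.2 in dorsal and 105 and 104 in virgin cells. It was absent on both 16 dpc ventral arrays and by group means at least 2.09-fold lower than in virgin ventral cells. Over 16 dpc dorsal cells the lowest was Pappa, a protease that cleaves IGF binding proteins, at 41.1 and 3.63 in 16 dpc ventral cells, 94.2 and 47.9 in 16 dpc dorsal cells and 51.0 and 96.4 in virgin ventral cells (log2 fold change -2.46). Irs2 and Pappa entered the fit through virgin ventral cells only, so that a lower value over those cells was set by the filter. Igf2bp3 entered through 16 dpc dorsal and virgin ventral cells and not through 16 dpc ventral cells.

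**Figure D3:**
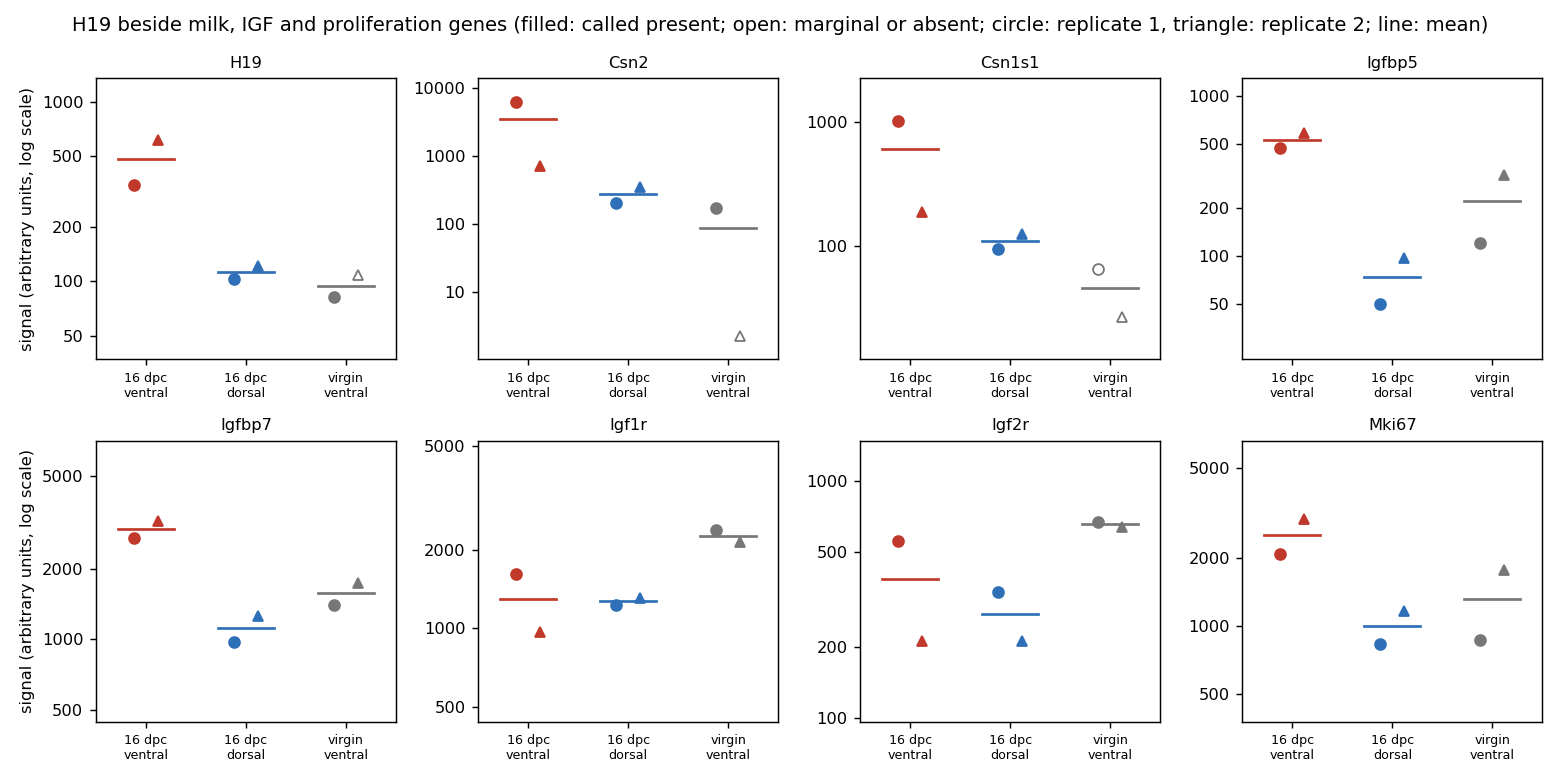
Signal (arbitrary units, log axis) of H19 beside Csn2, Csn1s1, Igfbp5, Igfbp7, Igf1r, Igf2r and Mki67 on 6 arrays, with circles for replicate 1, triangles for replicate 2, filled marks for present calls and lines at the group means. H19, Igfbp5 and Igfbp7 are higher on replicate 2 of the 16 dpc ventral cells, whereas Csn2 (6185 and 699) and Csn1s1 (1031 and 186) are higher on replicate 1.

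Grb10, an adaptor that damps insulin and IGF receptor signalling, was present on all 6 arrays by 1 of its 3 probe sets. That probe set stood at 81.4 and 108 in 16 dpc ventral cells, 53.1 and 37.9 in 16 dpc dorsal cells and 81.3 and 52.3 in virgin ventral cells. The 16 dpc ventral arrays lay above the dorsal ones by 2.09-fold (log2 fold change 1.06 ± 0.43 SE, with 0.62 and 1.51 within replicates 1 and 2). Over virgin ventral cells the log2 fold change was 0.53 ± 0.43 SE and came from replicate 2, with 0.00 and 1.05 within replicates 1 and 2. The other 2 probe sets of Grb10 had a single present call among their 12 values, on 16 dpc ventral replicate 1.

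Cdkn1c (p57), an inhibitor of cyclin-dependent kinases (CDKs), was present on 1 of 6 arrays. Its signals were 45.2 and 21.3 in 16 dpc ventral cells, 43.3 and 8.19 in 16 dpc dorsal cells and 24.4 and 98.8 in virgin ventral cells, where replicate 2 carried the present call. All 3 groups overlapped. Of 7 other CDK inhibitors 6 could be fitted. None of the 6 passed in limma (0 over probe sets, 0 over genes), and at an unadjusted p under 0.05 there were 2 lower over virgin ventral cells and 1 lower over 16 dpc dorsal cells (4.91% and 1.73% of all probe sets fitted). Cdkn2b (p15) stood at 276 and 224 in 16 dpc ventral cells, 441 and 349 in 16 dpc dorsal cells and 545 and 567 in virgin ventral cells, with no overlap (log2 fold changes of -1.16 and -0.66). Cdkn1b (p27) stood at -0.39 and -0.28 and Cdkn1a (p21) at -0.36 and -0.18 on the log2 fold scale, in the same order of comparisons.

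Dlk1 and Meg3 lie side by side on chromosome 12 and are read from opposite parental alleles. Dlk1, a membrane protein related to Notch ligands, was present on 5 arrays by 1 of its 2 probe sets, at 72.7 and 53.3 in 16 dpc ventral cells, 46.9 and 73.5 in 16 dpc dorsal cells and 57.4 and 46.4 in virgin ventral cells. The groups overlapped, with log2 fold changes of 0.27 ± 0.43 SE over virgin ventral and 0.08 ± 0.43 SE over 16 dpc dorsal cells. Its other probe set had no present call, at 15.5 and 30.2 in 16 dpc ventral, 17.9 and 36.4 in 16 dpc dorsal and 7.51 and 6.93 in virgin ventral cells.

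Meg3, a long non-coding RNA, has 11 probe sets, of which 8 were present on no array, and only 6 of the 66 values, which ran from 1.77 to 128, carried a present call. The 1 that could be fitted stood at 31.6 and 71.1 in 16 dpc ventral cells, 37.4 and 53.0 in 16 dpc dorsal cells and 47.2 and 47.2 in virgin ventral cells. Here the spread within the pregnant groups exceeded any difference between groups (log2 fold changes of 0.01 ± 0.52 SE and 0.09 ± 0.52 SE). The brightest probe set of Meg3 had 1 present call, at 119 and 98.3 in 16 dpc ventral, 56.6 and 98.4 in 16 dpc dorsal and 106 and 128 in virgin ventral cells. Of 15 genes of the Notch pathway 10 could be fitted. In limma 0 passed over probe sets or over genes, and at an unadjusted p under 0.05 there was 1 lower over virgin ventral cells and 0 over 16 dpc dorsal cells. A count of 1 of 10 stands near the 4.91% of all probe sets that were lower over virgin ventral cells (1.73% over 16 dpc dorsal). The median log2 fold change of the 10 was -0.08 over virgin ventral cells (5 below 0). Over 16 dpc dorsal cells it was -0.16 (9 below 0), against -0.03 over all probe sets fitted in both. The 1 gene was Notch3, a Notch receptor, at 1830 and 1739 in 16 dpc ventral, 1963 and 1917 in 16 dpc dorsal and 2272 and 2619 in virgin ventral cells. The ligand Jag1 (log2 fold changes of -0.33 and -0.15) and the receptor Notch2 (-0.34 and 0.05) had smaller differences.

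Peg3, a zinc-finger protein with roles in growth and maternal behaviour, stood at 85.3 and 124 in 16 dpc ventral cells, 38.2 and 76.4 in 16 dpc dorsal cells and 111 and 115 in virgin ventral cells. This was the only one of its 5 probe sets with a present call, and it was absent on 16 dpc dorsal replicate 1. Signals over all 5 ran from 0.32 to 124. The dorsal arrays were the lowest of the 6. For 16 dpc ventral cells the log2 fold change was 0.93 ± 0.44 SE over 16 dpc dorsal cells (1.16 and 0.70 within replicates 1 and 2) and -0.14 ± 0.44 SE over virgin ventral cells, where the groups overlapped. In 16 dpc dorsal over virgin ventral cells it was -1.06 ± 0.44 SE.

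Plagl1 (Zac1), a zinc-finger factor that slows the cell cycle and has been tied to a network of imprinted genes, gave a strong signal through 1 probe set. It stood at 4477 and 5191 in 16 dpc ventral cells, 3016 and 3929 in 16 dpc dorsal cells and 4820 and 3990 in virgin ventral cells. The 16 dpc dorsal arrays again were the lowest, with a log2 fold change of 0.49 ± 0.19 SE for 16 dpc ventral over 16 dpc dorsal cells (0.57 and 0.40 within replicates 1 and 2). Over virgin ventral cells it was 0.14 ± 0.19 SE, with overlap. The other 2 probe sets of Plagl1 were present on no array, with signals of 4.24 to 74.8. So the level rests on a probe set that also carries the ending x_at.

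Ndn (necdin), a protein that holds cells in a resting state, was covered by 8 probe sets, and 24 of the 48 values, which ran from 5.30 to 126, carried a present call. The 3 probe sets present on all arrays did not agree on an order of groups. The first stood at 82.0 and 71.6 in 16 dpc ventral cells, 69.1 and 118 in 16 dpc dorsal cells and 60.9 and 80.9 in virgin ventral cells. The second stood at 73.4 and 86.2, against 62.4 and 99.7 in dorsal and 76.3 and 58.4 in virgin cells. The third stood at 54.6 and 65.9, against 38.1 and 41.5 in dorsal and 33.2 and 40.6 in virgin cells, and was the only one of the 3 without overlap (log2 fold changes of 0.71 ± 0.42 SE and 0.59 ± 0.42 SE). The last pair of these 3 also carries the ending x_at. Over the 5 probe sets of Ndn that could be fitted, the log2 fold change over virgin ventral cells was 0.13 to 0.71 (5 of 5 above 0). Over 16 dpc dorsal cells it was -0.24 to 0.59 (4 of 5 above 0). These are readings of 1 gene, and 1 of them entered the fit through 16 dpc ventral cells only, so that its direction was set by the filter. Of those not fitted, 1 was present on virgin ventral replicate 1 only and had -1.08 over virgin ventral cells. The 2 with no present call had 0.73 and 0.82.

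Nnat (neuronatin), a small membrane protein of brain and endocrine cells, was present on no array. Its 1 probe set stood at 4.48 and 1.05 in 16 dpc ventral cells, 9.76 and 18.0 in 16 dpc dorsal cells and 1.46 and 29.1 in virgin ventral cells.

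**Figure D4:**
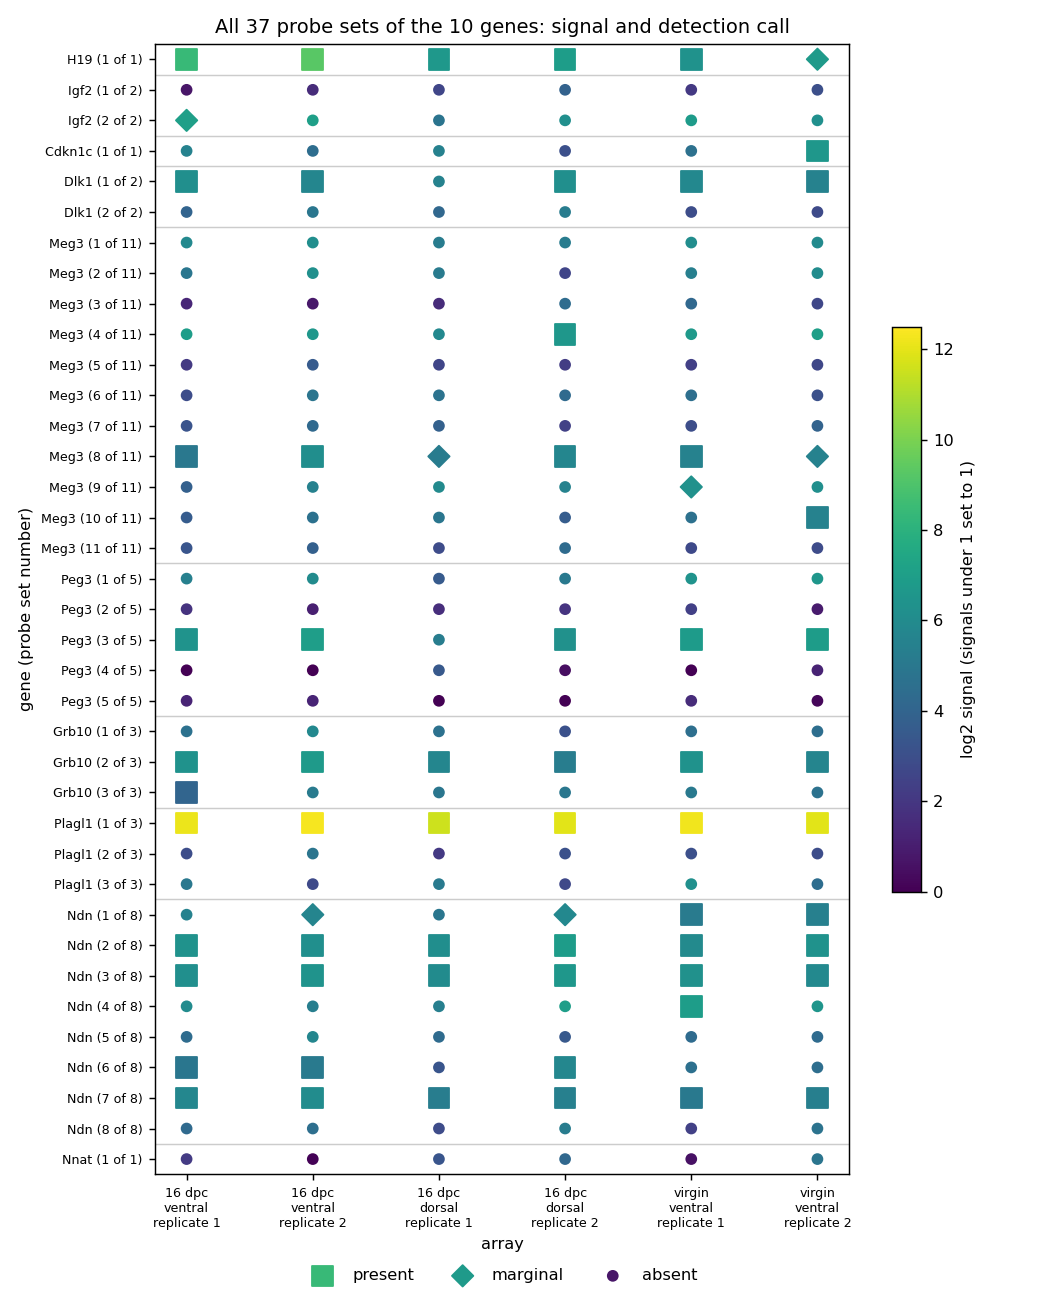
Signal (colour, log2 scale) and detection call (square present, diamond marginal, circle absent) of all 37 probe sets of the 10 genes on 6 arrays. Only 5 probe sets (3 of Ndn, 1 of Grb10 and 1 of Plagl1) are present on all arrays, and 21 are present on none.

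Of the 37 probe sets, 11 (from 7 genes) could be fitted, since both arrays of some group called them present. None for Igf2, Cdkn1c and Nnat could. A probe set that entered through 16 dpc ventral cells alone had to be bright there, so counts over the 11 are a description. In limma 0 of 11 passed in each comparison, where 0% of all probe sets passed against virgin ventral and 0.00434% against 16 dpc dorsal cells. At an unadjusted p under 0.05 there was 1 higher over virgin ventral cells (background 4.07%) and 3 higher over 16 dpc dorsal cells (background 1.64%). The fit with 1 probe set per gene leaves out H19, because its probe set lists 2 genes, and Meg3, because its brightest probe set could not be fitted. In it 0 of 5 passed in each (22 and 9 of all 10993 genes). At an unadjusted p under 0.05 in either direction there were 0 and 2, against 1280 and 559 of all 10993 genes. Both 16 dpc ventral arrays lay above both virgin arrays for 5 of the 11 (20.2% of all fitted) and above both dorsal arrays for 5 (12.2% of all fitted). The log2 fold change was above 0 for 10 of 11 in each comparison, where 5 of the 11 are probe sets of a single gene, Ndn. The median over the 11 was 0.27 against virgin ventral and 0.46 against 16 dpc dorsal cells. Over all probe sets fitted it was -0.03 in both. Without H19 the values of the 11 reached 0.71 and 1.06 at most. In 16 dpc dorsal over virgin ventral cells 7 of 11 were above 0, with a median of 0.10 (0.03 over all fitted). Both dorsal arrays lay below both virgin arrays for 2 (Peg3 and Plagl1, 19.7% of all fitted).

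**Figure D5:**
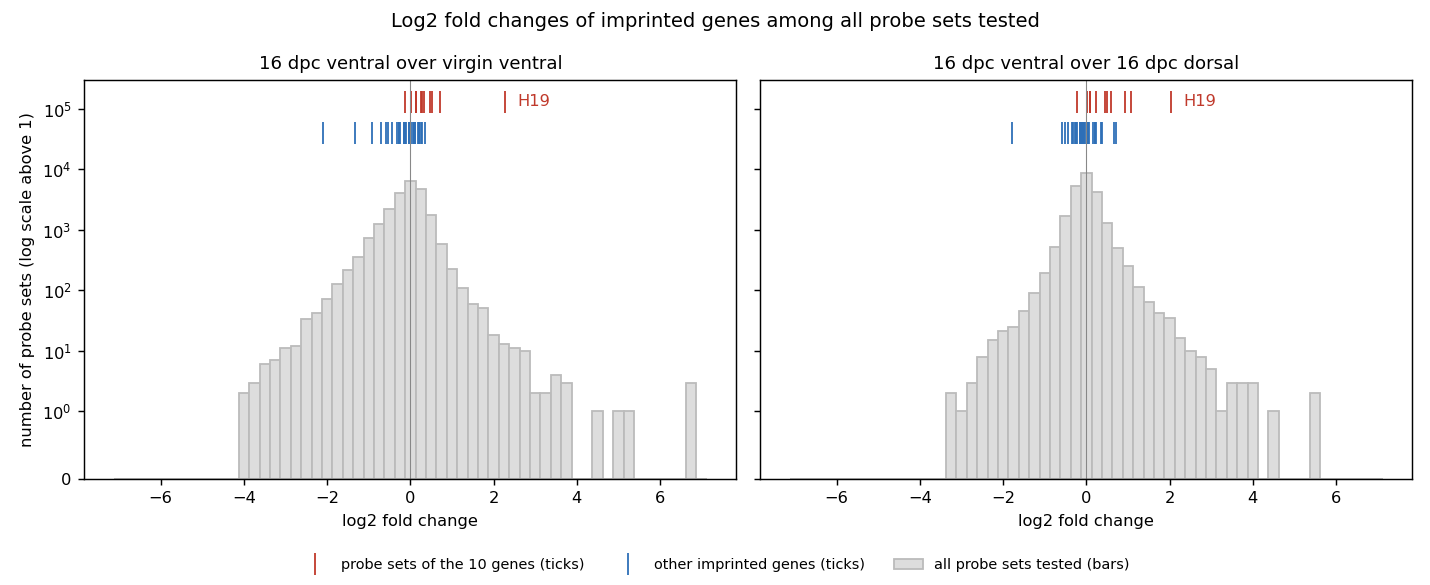
Log2 fold change of 16 dpc ventral cells against virgin ventral (left) and against 16 dpc dorsal cells (right), with red ticks for the 11 fitted probe sets of the 10 genes, blue ticks for 35 other imprinted genes and grey bars for the number of all fitted probe sets per bin on a log axis. H19 stands at 2.28 and 2.03, and the other ticks lie mostly between -1 and 1.

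Imprinted genes outside the 10 lay on both sides of 0, with medians near that of all probe sets. Of 68 such genes, described as imprinted in mouse or human tissues, 58 are on the array and 35 could be fitted. Over virgin ventral cells 15 were above 0 and 20 below, with a median of -0.03, and over 16 dpc dorsal cells 16 were above 0 and 19 below, with a median of -0.05. In limma 0 passed over probe sets or over genes. At an unadjusted p under 0.05 there were 2 lower over virgin ventral and 3 lower over 16 dpc dorsal cells, with 0 higher in each (4.91% and 1.73% of all probe sets fitted were lower). Rasgrf1 was lower in both, Dcn over virgin ventral cells and Ascl2 and Osbpl5 (above) over 16 dpc dorsal cells. For Rasgrf1 neither ventral group had a present call, so its place among the genes lower over virgin ventral cells is not a measured difference. Rasgrf1 entered the fit through 16 dpc dorsal cells only and Dcn through virgin ventral cells only. Their lower values over those groups were therefore set by the filter, and these counts are a description. Rasgrf1, a guanine nucleotide exchange factor for Ras, stood at 62.1 and 96.1 in 16 dpc ventral cells (absent), 272 and 258 in 16 dpc dorsal cells (present) and 205 and 181 in virgin ventral cells (marginal and absent). By group means it was at least 3.43-fold lower in 16 dpc ventral than in 16 dpc dorsal cells. Dcn (decorin), a proteoglycan made by fibroblasts, was present in virgin ventral cells only, at 39.1 and 33.0 in 16 dpc ventral, 12.0 and 42.3 in 16 dpc dorsal and 122 and 196 in virgin ventral cells. By group means it was at least 4.31-fold lower in 16 dpc ventral than in virgin ventral cells. The summed fibroblast markers given beside H19, Dcn included, were instead highest in 16 dpc ventral cells.

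The machinery that writes and keeps imprints was followed through 26 genes, of which 21 could be fitted. In limma 0 passed over probe sets or over genes, and at an unadjusted p under 0.05 there were 4 higher over virgin ventral cells and 0 over 16 dpc dorsal cells (4.07% and 1.64% of all probe sets fitted). The median log2 fold change was 0.17 and 0.05. Hells, a chromatin remodeller needed for DNA methylation, stood at 1476 and 2318 in 16 dpc ventral cells, 911 and 1727 in 16 dpc dorsal cells and 796 and 1159 in virgin ventral cells. The de novo methyltransferase Dnmt3b had log2 fold changes of 0.60 and 0.20, and Eed, a subunit of a Polycomb repressive complex, of 0.42 and 0.03.

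Of 16 genes reported in other systems as targets or partners of H19 and miR-675, 13 could be fitted. In limma 0 passed over probe sets or over genes, and at an unadjusted p under 0.05 there was 1 lower over virgin ventral cells (Igf1r, above) and 0 over 16 dpc dorsal cells, near the 4.91% and 1.73% of all probe sets fitted that were lower. The median log2 fold change was -0.03 and -0.02, near that of all probe sets fitted. The matrix protein Tgfbi stood at 19057 and 21583 in 16 dpc ventral, 22460 and 32116 in 16 dpc dorsal and 25000 and 22683 in virgin ventral cells. The RNA-binding protein Elavl1 (HuR), known to block processing of miR-675 from H19, stood at 2928 and 3441, against 2730 and 2985 in dorsal and 2957 and 1979 in virgin cells, with overlap in both comparisons.

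Genes of the cell cycle were the list with the largest median of the 8 in both comparisons of 16 dpc ventral cells, whereas in 16 dpc dorsal over virgin ventral cells their median was 0.02. All 27 on the array could be fitted. The median log2 fold change was 0.71 over virgin ventral cells (25 of 27 above 0) and 0.81 over 16 dpc dorsal cells (24 of 27 above 0). In limma 0 passed over probe sets or over genes, while at an unadjusted p under 0.05 there were 12 higher and 1 lower over virgin ventral cells and 11 higher and 0 lower over 16 dpc dorsal cells. Of all probe sets fitted 4.07% were higher and 4.91% lower over virgin ventral cells, and 1.64% higher and 1.73% lower over 16 dpc dorsal cells. Mki67, a marker of cycling cells, stood at 2078 and 2982 in 16 dpc ventral cells, 832 and 1163 in 16 dpc dorsal cells and 865 and 1762 in virgin ventral cells. Cdca8 (borealin), a subunit of the chromosomal passenger complex, stood at 1492 and 2196, against 1050 and 1032 in dorsal and 876 and 995 in virgin cells. Top2a, the topoisomerase of dividing cells, had log2 fold changes of 1.12 and 1.02. As for H19, both 16 dpc ventral arrays lay above the other 4 for these 3 genes and replicate 2 was the higher. Replicate 2 was also the higher in the 16 dpc dorsal and virgin ventral groups for H19, Mki67 and Top2a, and in the virgin ventral group for Cdca8. Replicate 2 of the 16 dpc ventral cells also had an actin ratio of 3.90. A tie between H19 and these genes was not tested.

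The genes whose log2 signal followed that of H19 most closely over the 6 arrays were Sdcbp (syntenin, an adaptor of membrane traffic; Pearson r = 0.992), Ndn through the third probe set above (r = 0.988) and Cdca8 (r = 0.986). Of 19616 probe sets with 1 gene each, 43 had an r above 0.95 and 189 above 0.9. These r values are a description over 6 arrays that share 3 groups. For Peg3 the closest were Ly6d (r = 0.984), Duox1 (r = 0.982) and Lrp12 (r = 0.980). For Plagl1 they were Cd274 (r = 0.982), Lamb1 (r = 0.978) and Sik2 (r = 0.971), and for Grb10 Dpp4 (r = 0.993), Zfp106 (r = 0.988) and Ubr3 (r = 0.976). For Dlk1 they were Zfp142 (r = 0.995), Cspp1 (r = 0.987) and Klhdc4 (r = 0.978), and for Ndn Vezf1 (r = 0.990), Socs2 (r = 0.989) and Plekha3 (r = 0.985).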

How the data were processed

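RNA of sorted basal cells was hybridised by the authors to Affymetrix mouse arrays with the GeneChip 3′IVT Express Kit. The deposited files give per probe set a linear MAS5 signal intensity and its detection call, made per the submitters' processing notes with Affymetrix Expression Console version 1. The authors scaled the arrays, and the trimmed mean was 500.003 on each. A genome build was not given in the sources used here. The series value table held the same signals (largest relative difference 5.00e-06). The day of pregnancy is that of the labels, from which the headers differ slightly.

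Log2 signals were used, with 1 as the lowest signal allowed. Of 45037 probe sets, the 23017 called present by both arrays of some group were fitted with limma 3.58.1 (lmFit, eBayes with trend) in R 4.3.3 on all 6 arrays, with 3 residual and 4.08 prior degrees of freedom, two-sided, with Benjamini-Hochberg adjustment and a threshold of 0.05. Symbols came from the platform annotation (34945 probe sets with 1 gene, 932 with several, 9160 with none). Of them 34754 matched the RefSeq table (GRCm38.p6). A group with no present call has only a bound, given as "at least". This is the fold of mean log2 signals, with each array of that group taken at its signal or, if higher, at its lowest present signal. It is not a limit for each replicate, whose own fold can be lower. The script was tested on simulated data. Alternatives covered filter, scaling, floor, prior, unit of test, block, RNA quality and arrays left out. Detection calls stand for depth, and the lowest present signal was 6.34 to 11.3.

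Members and lists were chosen with earlier results of these data known. Named were all members, per list the genes past the fit, filled to 3 by smallest p, and the 3 genes most like each member whose brightest probe set could be fitted, leaving out predicted genes. Igf2r, Grb7, Irs2, Igf2bp3, Pappa, Psg21, Csn2, Csn1s1 and Krt8 were added after their values were seen.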

Additional observations from a re-analysis of the deposited data

How the results depend on the processing

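The log2 fold change of H19 kept its direction under 9 alternatives each, at 1.86 to 2.71 over virgin ventral cells and 1.61 to 2.45 over 16 dpc dorsal cells. The lowest and highest values came without 16 dpc ventral replicate 2 and without replicate 1. The direction also held for Grb10 in both comparisons and for Peg3 and Plagl1 over 16 dpc dorsal cells (0 sign changes in 10 alternatives), but Dlk1, Meg3 and Ndn over 16 dpc dorsal cells changed sign in 3 of 10.

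Counts of calls over all probe sets moved with the processing, and the cause was not tested. Over virgin ventral cells the count was 0, against 22 with 1 probe set per gene (fewer tests, 10993) and 214 without the arrays of high actin ratio. Over 16 dpc dorsal cells it was 1 (Tbx3), against 0 for probe sets present on all 6 arrays, 0 with no trend, 0 on the 4 arrays of the 2 groups, 9 with 1 probe set per gene and 40 without the arrays of high actin ratio. In 16 dpc dorsal over virgin ventral cells it was 0, against 123 without those arrays. Leaving out each array gave 0 to 1 over virgin ventral cells, 0 to 3 over 16 dpc dorsal cells and 0 to 1 in the third comparison. The single calls and the 3 came without 16 dpc dorsal replicate 1, 2 came without 16 dpc dorsal replicate 2, and each of the 4 other arrays left out gave 0. Within the gene lists 0 passed, against 4 without the arrays of high actin ratio (Igfbp2, Igfbp5, Igfbp7 and Rasgrf1). That fit keeps 1 array in each 16 dpc group, whose spread is assumed to be that of the virgin group.

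In the fits that took the replicate as a block, the counts were 3, 6 and 0 in the 3 comparisons, and 0 in the lists. The deviations of same-numbered arrays correlated at 0.54 between the 16 dpc groups and at -0.02 and -0.008 with the virgin group. The main fit did not pair arrays by number, since the virgin group did not share in this. The deviation that the 16 dpc groups share therefore stays in the spread that the main fit uses. No label shows whether ventral and dorsal 16 dpc arrays of the same number came from the same mice. The value table alternative was not run, since its values are those of the array files. With 2 arrays a group and signals near the detection limit, differences in Igf2, Cdkn1c, Meg3 and Nnat could not be measured.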
